A study of Mus musculus with 23 samples.

Results

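The adult haemoglobin genes and *Alas2* were followed in the head of the mouse pancreas before and after caerulein pancreatitis. The members were chosen by name: *Hba-a1*, *Hba-a2*, *Hbb-bs*, *Hbb-bt*, *Hbb-b1*, *Hbb-b2* and *Alas2*, 7 of the 18512 gene symbols in the count data. All 7 had enough counts to be tested. Only 4 separate series of values stood behind these names, because *Hba-a2* had the same count as *Hba-a1* in each of the 23 mice, *Hbb-b1* the same as *Hbb-bs*, and *Hbb-b2* the same as *Hbb-bt*. Each equal pair was taken once, under the names *Hba-a1*, *Hbb-bs* and *Hbb-bt*. Among the 12195 genes tested between time points, 23 symbols in 11 sets shared all their counts with another symbol.

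Haemoglobin, the oxygen carrier of red blood cells, is built from alpha-type chains (*Hba* genes) and beta-type chains (*Hbb* genes), each of which holds a haem group. *Alas2* encodes the form of 5-aminolevulinate synthase used by erythroid cells, which starts the making of haem. Young red cells leave the bone marrow with part of their globin mRNA still in them, and blood within a tissue carries these transcripts. In C57BL/6 mice the beta locus carries *Hbb-bs* and *Hbb-bt*, whereas the names *Hbb-b1* and *Hbb-b2* belong to the locus of other strains.

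Total RNA came from the head of the pancreas of C57BL/6 mice of both sexes, aged 6 to 8 weeks and weighing 20 to 25 g. The 8 baseline mice (4 female, 4 male) were not injured. The 8 mice at day 7 (4 female, 4 male) and the 7 at day 14 (3 female, 4 male) had all received 8 hourly injections of caerulein (50 µg/kg), an analogue of cholecystokinin that overstimulates the acinar cells, on each of 2 days. The injured mice had no vehicle-injected counterparts in these data, so the injections, the injury and the time after it cannot be told apart, and perfusion of the organ is not mentioned in the sources used here. Each library held between 7059890 and 9567446 counts. Mouse 15, a day 7 male, stood far above the others in the genes described here, and results that rest on it are given with and without it.

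The promoters are printed as a description of the genes. Any link between their motifs and the values across mice was not tested. RefSeq promoter entries (build GRCm38.p6) were found for 5 of the 7 members, and the 120 bases that precede each RefSeq gene start are printed 5′ to 3′. Capitals mark 4 motifs on either strand, namely the CCAAT box motif, the erythroid box motif CACCC, the GATA-type motif AGATAA and the TATA-type motif ATATAA, and matches that touch or overlap run together.
Hba-a1 promoter, chr11:32283552-32283671, plus strand: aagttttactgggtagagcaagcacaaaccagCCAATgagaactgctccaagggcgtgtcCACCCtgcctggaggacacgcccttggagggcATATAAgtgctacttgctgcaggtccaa
Hba-a2 promoter, chr11:32296372-32296491, plus strand: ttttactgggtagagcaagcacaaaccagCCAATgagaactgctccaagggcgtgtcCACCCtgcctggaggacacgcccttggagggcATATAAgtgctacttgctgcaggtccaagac
Hbb-bs promoter, chr7:103827929-103828048, minus strand: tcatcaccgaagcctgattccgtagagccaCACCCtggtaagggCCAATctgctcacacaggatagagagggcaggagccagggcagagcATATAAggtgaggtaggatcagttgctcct
Hbb-bt promoter, chr7:103813924-103814043, minus strand: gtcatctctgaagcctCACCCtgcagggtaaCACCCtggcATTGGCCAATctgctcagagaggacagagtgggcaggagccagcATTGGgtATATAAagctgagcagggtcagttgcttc
Alas2 promoter, chrX:150547297-150547416, plus strand: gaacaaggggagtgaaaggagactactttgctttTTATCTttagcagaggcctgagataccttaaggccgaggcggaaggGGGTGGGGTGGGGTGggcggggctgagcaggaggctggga

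All 4 globin promoters held ATATAA and CCAAT. In *Hbb-bs*, ATATAA began 30 bases before the gene start, CCAAT 76 bases before it and CACCC 90 bases before it. In *Hbb-bt* the same motifs began at 29, 75 and 89 bases, with a CCAAT on the opposite strand directly before the other, in the run ATTGGCCAAT. Within the 300 bases from 250 before to 50 after the start, the windows of *Hba-a1* and *Hba-a2* shared an unbroken run of 297 bases. The *Alas2* window held neither CCAAT nor ATATAA, and had AGATAA on the opposite strand 86 bases before the start and CACCC on the opposite strand at 30, 35 and 40 bases. AGATAA, which contains the letters recognised by GATA factors, was also found 210 bases before the start of *Hbb-bs*, outside the printed stretch. Of 32851 promoter windows of the same length, 37.4% held the CCAAT motif, against 4 of the 5 member promoters. CACCC was in 57.5% of windows and in all 5 members, the GATA-type motif in 11.2% and in 2 members, and the TATA-type motif in 9.82% and in 4 members. These matches describe the letters and do not show a bound site.

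In GENCODE vM21 on GRCm38, *Hba-a1* lies at chr11:32283511-32284465 and *Hba-a2* at chr11:32296489-32297298, both on the plus strand. *Hbb-bs* lies at chr7:103826534-103828096 and *Hbb-bt* at chr7:103812524-103813996, both on the minus strand, and *Alas2* at chrX:150547375-150570638 on the plus strand. Close copies limit how well reads can be told apart. Of all 75-base windows of their transcripts, 32.1% of those of *Hba-a1*, 15.4% of *Hba-a2*, 48.5% of *Hbb-bs* and 43.4% of *Hbb-bt* occurred in no other gene, compared with all of those of *Alas2*. The windows that were not unique were shared only within the alpha pair or within the beta pair. Values for a single globin gene are therefore uncertain to the extent that the counting of fragments split or dropped reads of its copy.

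Haemoglobin transcripts were a minute part of every library. The 3 separate haemoglobin rows together took between 0.00190% and 0.00362% of the counts of each baseline mouse. The corresponding ranges were 0.00280% to 0.0684% for the day 7 mice and 0.00415% to 0.00987% for the day 14 mice. The highest share was that of mouse 15, at 0.0684% (5938 counts, 95% exact binomial interval 0.0667% to 0.0702%), and the next highest was 0.0118%. Intervals of this kind cover counting error only. Per kilobase of exon, the median normalised count at baseline was 228 for *Hbb-bs*, 60.8 for *Hbb-bt*, 51.8 for *Hba-a1* and 5.70 for *Alas2*. With the exon length of *Hba-a2*, which has the same counts as *Hba-a1*, the alpha median was 63.1. Whole exon lengths were used, although the share of unique windows differs between these genes. Per kilobase, *Hbb-bs* did not overlap with the other 3 rows at baseline (188 to 286, against 19.4 to 92.9 for *Hbb-bt*). *Hbb-bt* and *Hba-a1* overlapped (34.7 to 72.5 for *Hba-a1*), and *Alas2* was below both (1.02 to 8.91).

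The normalised count of *Hbb-bs*, the beta chain gene with the higher counts, ranged at baseline from 145 to 220 with a median of 175. Day 7 values ran from 120 to 3046 (median 237), and day 14 values from 253 to 591 (median 338). A normalised count is the count scaled by the trimmed mean of M-values (TMM) to a library of average size. Every day 14 mouse lay above every baseline mouse, whereas at day 7 this held for 5 of 8 mice.

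The alpha chain gene *Hba-a1* ran from 28.2 to 58.9 at baseline (median 42.1), from 28.6 to 791 a week after injury (median 71.0) and from 69.3 to 132 at day 14 (median 83.7). For *Hbb-bt*, the beta chain gene with the lower counts, the range at baseline was 13.6 to 65.3 (median 42.7). It was 26.04 to 977 at day 7 (median 79.0) and 61.9 to 168 at day 14 (median 88.6). *Alas2* was the lowest, at 2.45 to 21.4 at baseline (median 13.7), 8.46 to 241 at day 7 (median 20.99) and 15.7 to 45.7 at day 14 (median 21.7). The number of mice above every baseline mouse was 6 of 8 at day 7 and 7 of 7 at day 14 for *Hba-a1*, 5 of 8 and 5 of 7 for *Hbb-bt*, and 4 of 8 and 5 of 7 for *Alas2*. Full separation of day 14 from baseline, seen in *Hba-a1* and *Hbb-bs*, occurred in 0.435% of all genes tested. At day 7 none of the 4 rows was fully separated from baseline, compared with 1.16% of all genes.

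**Figure D1:**
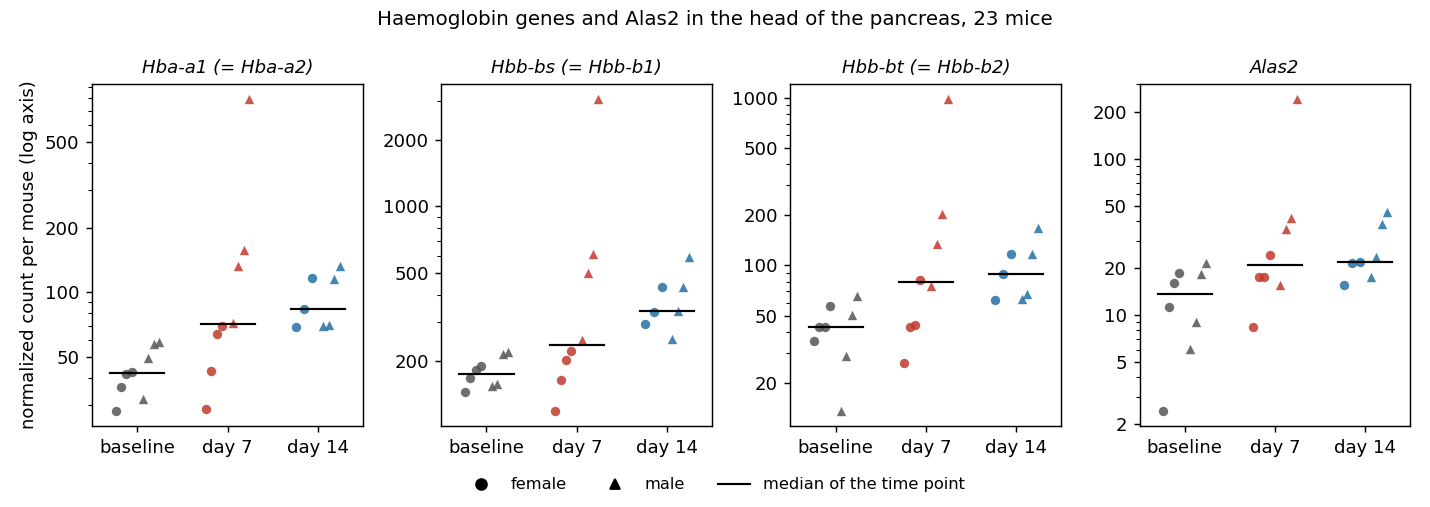
Normalised count of each of the 4 rows in 23 mice (log axis), by time point, with circles for females, triangles for males and a line at the median of the time point. Mouse 15 is the highest day 7 point in every panel, and all day 14 points of *Hba-a1* and *Hbb-bs* lie above all baseline points.

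At day 7 *Hba-a1*, *Hbb-bt* and *Alas2* were higher than at baseline. The size of that rise depended largely on mouse 15. *Hba-a1* rose by a log2 fold change of 1.72 ± 0.53 (SE, adjusted p = 0.0290), *Hbb-bt* by 1.87 ± 0.63 (adjusted p = 0.0448) and *Alas2* by 1.67 ± 0.57 (adjusted p = 0.0457). *Hbb-bs* had a log2 fold change of 1.504 ± 0.525 and an adjusted p of 0.0522, just past the threshold of 0.05. So 3 of 4 rows were differentially expressed genes (DEGs, adjusted p at most 0.05 and fold change at least 1.5), all of them higher, against 5.13% of all genes in either direction and 3.82% higher. At an unadjusted p under 0.05 all 4 rows passed, against 32.2% of all genes, and DESeq2 called all 4. Shares of all genes called are those of edgeR throughout, and the shares that DESeq2 called are not given here. The mean normalised count of *Hbb-bs* was 179 ± 28.02 (SD, n = 8) at baseline and 640 ± 987 (SD, n = 8) at day 7.

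Without mouse 15, the day 7 mean of *Hbb-bs* was 296 ± 185 (SD, n = 7), and 1 of the 4 rows was a DEG, against 4.21% of all genes. That row was *Hba-a1*, with a log2 fold change of 0.87 ± 0.26 (adjusted p = 0.0295). *Hbb-bs* (0.66, adjusted p = 0.102), *Hbb-bt* (0.94, adjusted p = 0.106) and *Alas2* (0.80, adjusted p = 0.104) did not pass. The call of *Hba-a1* was kept when any of 20 mice was left out and lost without mouse 6, 7 or 8, all baseline males, with adjusted p-values of 0.0537 to 0.0654. The call of *Hbb-bt* was lost on leaving out any of 17 mice, all but mice 4, 9, 10, 12, 13 and 14, and that of *Alas2* on leaving out any of 15, all but mice 1, 4, 9, 10, 11, 13, 14 and 16, with adjusted p-values up to 0.106 and 0.104. *Hbb-bs* became a DEG without mouse 9, 10, 11, 12 or 13, with adjusted p-values of 0.0326 to 0.0496.

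At day 14 the 4 rows lay higher than at baseline by a similar factor, but none passed the test in the fit of all mice. The log2 fold changes were 1.10 ± 0.56 for *Hba-a1* (adjusted p = 0.416), 1.03 ± 0.53 for *Hbb-bs* (adjusted p = 0.421), 1.11 ± 0.66 for *Hbb-bt* (adjusted p = 0.514) and 0.88 ± 0.60 for *Alas2* (adjusted p = 0.582). The count of DEGs was 0 of 4 in edgeR, 0 in DESeq2 and 0 at an unadjusted p under 0.05, against 0.787% of all genes called and 13.3% at an unadjusted p under 0.05. Mouse 15 is not part of this contrast, but its value entered the spread that the fit shares between groups. Without it, the fold changes of *Hba-a1* and *Hbb-bs* were 1.10 ± 0.26 (adjusted p = 0.0349) and 1.05 ± 0.26 (adjusted p = 0.0462), so 2 of 4 rows became DEGs, against 0.860% of all genes. *Hbb-bt* (1.13, adjusted p = 0.155) and *Alas2* (0.93, adjusted p = 0.169) did not pass. In a fit of only the baseline and day 14 mice, *Hba-a1* (1.10, adjusted p = 0.00129) and *Hbb-bs* (1.07, adjusted p = 0.00406) were also DEGs, among 115 of 11469 genes called. The comparisons of day 7 and day 14 with baseline share the 8 baseline mice.

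Between day 14 and day 7 the direction of the difference depended on mouse 15. With it, the log2 fold changes of day 14 against day 7 were -0.62 for *Hba-a1*, -0.48 for *Hbb-bs*, -0.77 for *Hbb-bt* and -0.79 for *Alas2*. Without it they were 0.23, 0.39, 0.20 and 0.13. The number of DEGs was 0 of 4 in edgeR in both fits, 0 in DESeq2 and 0 at an unadjusted p under 0.05 in all mice, against 0.377% of all genes called with mouse 15, 0.190% called without it and 14.1% at an unadjusted p under 0.05.

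**Figure D2:**
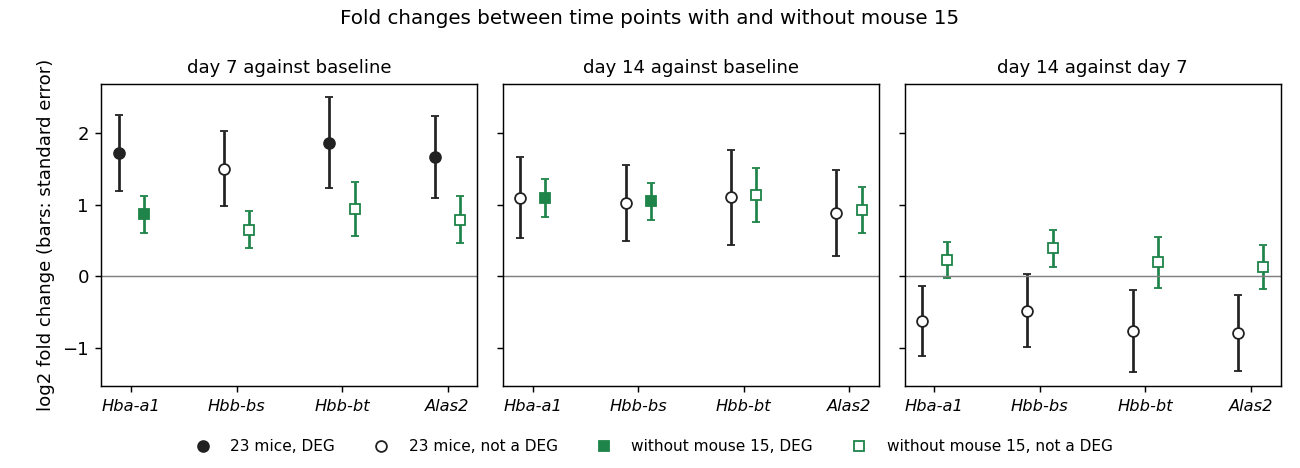
Log2 fold change of each row with its standard error in the 3 comparisons of time points, for all 23 mice (circles) and without mouse 15 (squares), filled where the gene was a DEG. The estimates for day 7 against baseline drop without mouse 15, those for day 14 against baseline stay near 1 with shorter bars, and those for day 14 against day 7 change sign.

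At day 7 most males lay above most females, although edgeR called none of these differences. The normalised counts of *Hbb-bs* in the 4 day 7 females were 165, 120, 223 and 203, and in the 4 males they were 251, 500, 3046 and 612. For *Hba-a1* the day 7 females had 43.1, 28.6, 69.7 and 64.1, and the males 72.3, 132, 791 and 158. All 4 males lay above every female in both genes, which occurred in 1.78% of all genes. For *Hbb-bt* the females had 43.1, 26.04, 82.3 and 44.2 and the males 75.8, 134, 977 and 203. For *Alas2* the females had 17.6, 8.46, 17.4 and 24.4 and the males 15.7, 35.8, 241 and 42.1. In these genes 3 of 4 males lay above every female.

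Tested between the sexes at day 7, the log2 fold changes of males against females were 2.52 ± 0.58 for *Hba-a1* (adjusted p = 0.179), 2.65 ± 0.57 for *Hbb-bs* (adjusted p = 0.155), 2.87 ± 0.67 for *Hbb-bt* (adjusted p = 0.179) and 2.32 ± 0.68 for *Alas2* (adjusted p = 0.395). None was a DEG in edgeR, against 0.0619% of all genes, although 4 of 4 had an unadjusted p under 0.05, as did 6.41% of all genes. DESeq2 called 3 of 4, all but *Alas2*. Leaving out mouse 13, the day 7 male with the lowest haemoglobin, widened the difference and made the same 3 rows DEGs in edgeR. These were *Hba-a1* (2.82, adjusted p = 0.0342), *Hbb-bs* (2.96, adjusted p = 0.0187) and *Hbb-bt* (3.18, adjusted p = 0.0419). Of the 23 omissions of 1 mouse, it was the only 1 that changed a call in this comparison. The share of all genes called without mouse 13 is not given here. Leaving out mouse 15 lowered the fold changes to 1.26, 1.37, 1.52 and 0.89 in the order *Hba-a1*, *Hbb-bs*, *Hbb-bt* and *Alas2*, with adjusted p-values of 0.279, 0.176, 0.505 and 0.836, against 0.0624% of all genes called. At baseline the log2 fold changes of males against females lay between -0.12 and 0.43 and at day 14 between 0.10 and 0.67, with 0 DEGs in edgeR, 0 in DESeq2 and 0 at an unadjusted p under 0.05 at either time (against 0.0696% and 0.0619% of all genes called, and 6.11% and 6.07% at an unadjusted p under 0.05). Over all time points, males against females gave 1.17 for *Hba-a1*, 1.07 for *Hbb-bs*, 1.21 for *Hbb-bt* and 1.24 for *Alas2*, with 0 DEGs in edgeR and in DESeq2 and 4 of 4 at an unadjusted p under 0.05, against 0.230% of all genes called and 9% at an unadjusted p under 0.05. Without mouse 15 these fold changes were 0.61, 0.57, 0.58 and 0.62, none of them a DEG. The unadjusted edgeR p of *Hbb-bt* was then 0.0693.

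Within males the rise from baseline to day 7 was a log2 fold change of 2.52 ± 0.61 for *Hba-a1* (adjusted p = 0.0158), 2.55 ± 0.58 for *Hbb-bs* (adjusted p = 0.0113), 3.08 ± 0.71 for *Hbb-bt* (adjusted p = 0.0130) and 2.56 ± 0.72 for *Alas2* (adjusted p = 0.0348), so 4 of 4 rows were DEGs, against 4.12% of all genes. Without mouse 15, *Hba-a1* (1.27, adjusted p = 0.0291), *Hbb-bs* (1.27, adjusted p = 0.0248) and *Hbb-bt* (1.74, adjusted p = 0.0444) were still DEGs and *Alas2* (1.14, adjusted p = 0.194) was not, against 2.81% of all genes. Within females the corresponding values were 0.44, 0.03, 0.09 and 0.45, with adjusted p-values of 0.770 to 0.985, against 1.89% of all genes called. The difference between the sexes in the change to day 7 was tested as an interaction and did not pass for any of the 4 rows. Its log2 estimates were 2.09, 2.51, 2.99 and 2.10, with adjusted p-values of 0.913, 0.673, 0.783 and 0.928. In this test 3 of 4 rows had an unadjusted p under 0.05, DESeq2 called 0, and 0.00773% of all genes were called (5.45% at an unadjusted p under 0.05). Without mouse 15 the interaction estimates were 0.83, 1.23, 1.64 and 0.68, with adjusted p-values of 0.822, 0.749, 0.794 and 0.899. The unadjusted edgeR p of *Hba-a1* was then 0.0933, against 0.0377 with all mice. At day 14 the fold changes against baseline were 1.28, 1.05, 0.99 and 0.69 in females and 0.95, 1.10, 1.34 and 1.14 in males, none of them a DEG (against 0.193% and 0.139% of all genes), and the interaction was called for 0 of 4 rows in edgeR and in DESeq2, with 0 at an unadjusted p under 0.05, against 0% of all genes called and 3.66% at an unadjusted p under 0.05. The contrasts within each sex were added after the values had been seen.

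Mouse 15 exceeded the next highest of all 23 mice by 5.02-fold in *Hba-a1*, 4.98-fold in *Hbb-bs*, 4.82-fold in *Hbb-bt* and 5.26-fold in *Alas2*. Its values were 791, 3046, 977 and 241. The proportions of the 4 genes in that mouse were within the range of the others. Per 100 counts of *Hbb-bs*, mouse 15 had 25.98 of *Hba-a1*, 32.1 of *Hbb-bt* and 7.91 of *Alas2*. The other 22 mice had 14.7 to 32.0 (median 26.3), 8.65 to 37.0 (median 26.3) and 1.28 to 12.0 (median 7.00). The lowest proportion of each gene was in a baseline mouse, with 23 counts of *Hba-a1* and 2 of *Alas2* in mouse 3 and 9 counts of *Hbb-bt* in mouse 8.

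Across mice the 4 rows rose and fell together. On the scale of log2 CPM (counts scaled to library size, prior count 2), *Hbb-bs* correlated over 23 mice with *Hba-a1* (Pearson r = 0.972, Spearman rho = 0.936), with *Hbb-bt* (r = 0.951, rho = 0.944) and with *Alas2* (r = 0.879, rho = 0.795). The permutation p of each r was 1e-05, the smallest that the permutations can give, and the adjusted p was 3e-05 for all 3, over 9 relations. The rho of *Alas2* had a permutation p of 2e-05 and an adjusted p of 6e-05; those of the other two were 1e-05 and 4.5e-05. Without mice 15 and 16, the farthest from the median of *Hbb-bs*, r was 0.926, 0.886 and 0.718. The globin rows are not fully separate measurements, since the beta pair shares part of its sequence.

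Within time points the same relations were not equally clear. Within day 7, r was 0.996, 0.990 and 0.977 (exact permutation, adjusted p = 2.23e-04, 3.35e-04 and 0.00223), and without mouse 15 it was 0.985, 0.970 and 0.913. Within day 14 it was 0.930, 0.958 and 0.793 (exact permutation, adjusted p = 0.00982, 0.00982 and 0.102). Within baseline it was 0.395, 0.584 and 0.311 (exact permutation, adjusted p = 0.484, 0.284 and 0.516), and without the 2 baseline mice farthest from the median of *Hbb-bs* (5 and 7) it was -0.596, 0.332 and -0.279. The relations did not pass among the uninjured mice, whose counts of these genes were the lowest.

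**Figure D3:**
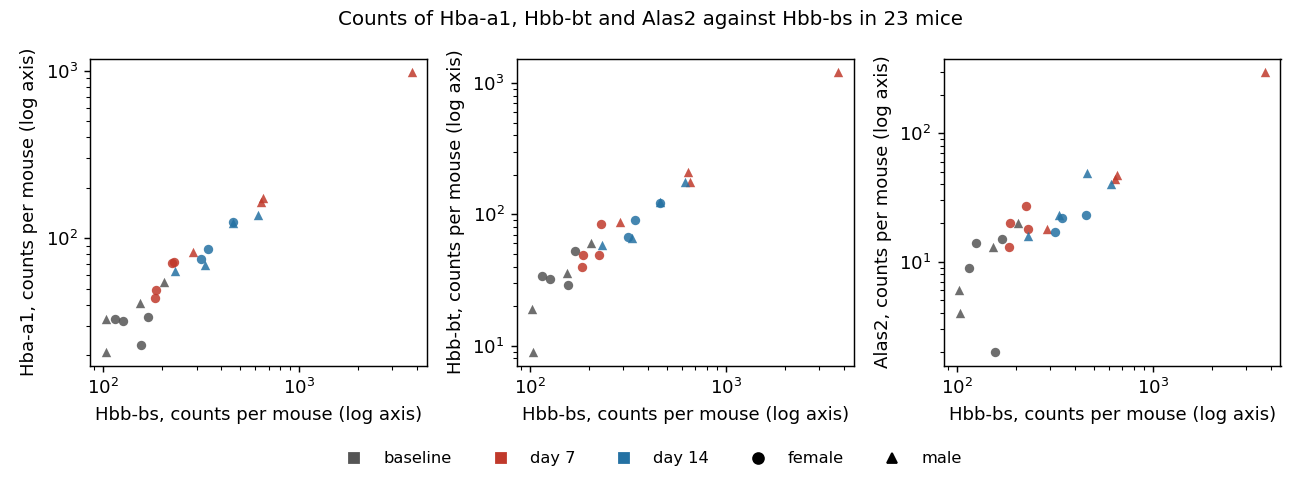
Counts of *Hba-a1*, *Hbb-bt* and *Alas2* against those of *Hbb-bs* in each of 23 mice (log axes), coloured by time point, with circles for females and triangles for males. Mouse 15, at 3757 counts of *Hbb-bs*, extends the band of the other mice, and the points scatter most at low counts.

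The members varied between mice of the same group more than most genes, except *Hbb-bs* at baseline. The SD of log2 CPM at day 7 was 1.44 for *Hba-a1*, 1.48 for *Hbb-bs*, 1.61 for *Hbb-bt* and 1.37 for *Alas2*, each larger than in at least 99.0% of all genes tested, whose median was 0.21. Without mouse 15 these SDs were 0.83, 0.84, 0.99 and 0.70, still larger than in at least 94.9% of genes. At day 14 they were 0.40, 0.41, 0.54 and 0.53, larger than in 84.3% to 92.2% of genes. At baseline *Hbb-bs* had an SD of 0.22, larger than in 47.6% of genes, *Hba-a1* 0.37 (75.4%), *Hbb-bt* 0.66 (92.9%) and *Alas2* 0.82 (96.0%). Baseline counts were 103 to 205 for *Hbb-bs*, 21 to 55 for *Hba-a1*, 9 to 61 for *Hbb-bt* and 2 to 20 for *Alas2*. The ranking takes no account of abundance, and low counts add counting error to the SD.

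Other genes of red cells were examined through a list of 28 genes of the red cell membrane and of erythroid differentiation, of which 23 were among the symbols and 6 had enough counts for the test. None of these 6 was a DEG at day 7 in edgeR or DESeq2, and 1 had an unadjusted p under 0.05, against 5.13% of all genes called and 32.2% at an unadjusted p under 0.05. Outside these 6, DESeq2 called 1 gene of the list at day 7. At day 14 none of the 6 was a DEG in edgeR or DESeq2, with 1 at an unadjusted p under 0.05, against 0.787% and 13.3% of all genes. The list had a median day 7 log2 fold change of 0.21, against 0.02 over all genes tested, and 0.11 against 0.01 a week later. The 3 most abundant were *Tfrc*, the transferrin receptor, *Bpgm*, which makes the regulator of oxygen affinity 2,3-bisphosphoglycerate, and *Slc25a37*, which brings iron into mitochondria. Their log2 fold changes at day 7 were 0.27, 0.15 and 0.15.

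In mouse 15 the red cell list was split. The normalised count was the highest of all 23 mice in 8 of the 23 genes. *Slc4a1*, the anion exchanger of the red cell membrane, had 68 counts in mouse 15 and 0 to 20 in the others. *Sptb*, a gene of the membrane skeleton, had 31 counts against 1 to 18, *Trim10*, an erythroid gene, 25 against 0 to 5, *Bpgm* 324 against 87 to 185 and *Slc25a37* 159 against 35 to 102. Among transcription factors of red cell precursors, *Gata1* had 1 count in mouse 15 against 0 to 2 in the others, *Klf1* 1 against 0 to 3, *Nfe2* 3 against 0 to 3 and *Tal1* 12 against 0 to 10. *Epor*, the erythropoietin receptor, had 6 against 0 to 7. *Gata1*, *Klf1* and *Nfe2* had at most 3 counts in any mouse, the floor used here, so a difference in them could not be judged. Over all genes tested, mouse 15 was the highest of the 23 mice in 5.17%. That share leaves out genes with few counts, among them 17 of the 23 list genes. Among the tested list genes, mouse 15 was highest in *Sptb*, *Bpgm* and *Slc25a37* and not in *Gypc*, *Ank1* and *Tfrc*. The genes named here beyond the most abundant were chosen after their values had been seen.

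**Figure D4:**
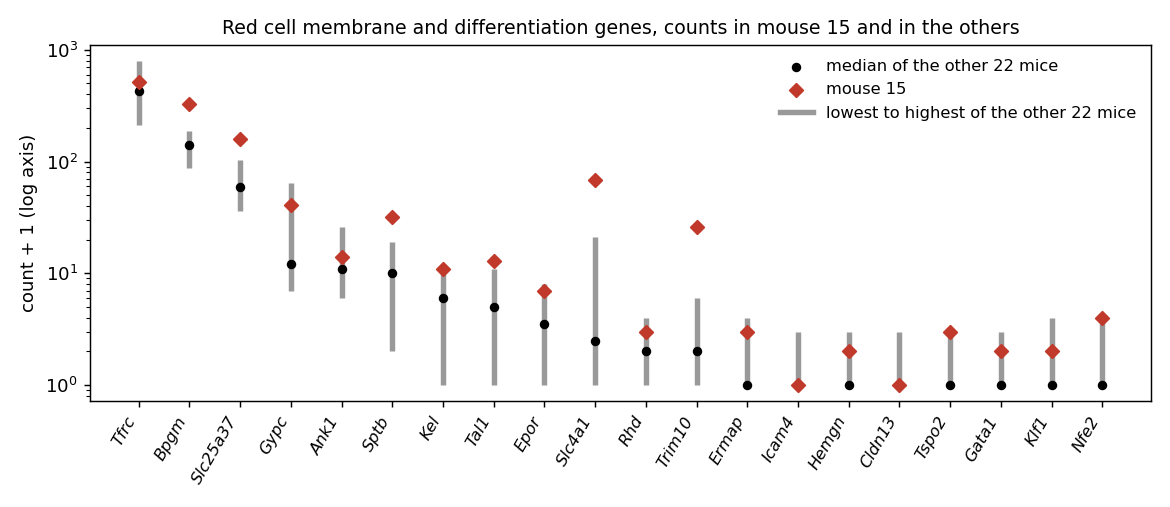
Counts plus 1 (log axis) of 20 of the 23 red cell membrane and differentiation genes, with mouse 15 as a diamond, the median of the other 22 mice as a dot and their range as a bar. *Slc4a1* and *Trim10* lie well above the range of the other mice in mouse 15. *Gata1* and *Klf1*, with 1 count each in mouse 15, do not, but their counts are too low to judge.

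Of 9 tested genes of haem synthesis, *Alas2* was the only DEG at day 7 (4 had an unadjusted p under 0.05, and DESeq2 called 1, against 5.13% of all genes called and 32.2% at an unadjusted p under 0.05), and the list had a median log2 fold change of -0.01. Without mouse 15 the list held 0 DEGs at day 7, against 4.21% of all genes. *Uros* had an adjusted p of 0.0187 with a log2 fold change of 0.42, below the fold threshold. The 3 most abundant, *Cpox*, *Fech* and *Urod*, which act in later steps of haem synthesis, had day 7 log2 fold changes of 0.06, -0.19 and -0.08. *Alas1*, the form of the enzyme used outside the erythroid line, had a log2 fold change of 0.10 (adjusted p = 0.422). No gene of the list was a DEG at day 14 in edgeR or DESeq2, with 0 at an unadjusted p under 0.05, against 0.787% and 13.3% of all genes.

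Among 14 genes of haem breakdown and iron handling, 13 were tested and 0 were DEGs in edgeR or DESeq2 at day 7, although 7 had an unadjusted p under 0.05, against 5.13% of all genes called and 32.2% at an unadjusted p under 0.05. The median log2 fold change was 0.19. The iron store genes *Ftl1* and *Fth1*, the most abundant of the list, had log2 fold changes of -0.46 (adjusted p = 1.74e-05) and -0.38 (adjusted p = 8.29e-05), which did not reach the fold threshold. *Slc40a1*, the iron exporter ferroportin, had 0.37 (adjusted p = 0.0197). *Lrp1*, a receptor for haem bound to haemopexin, had 0.30 (adjusted p = 0.0511), and *Hmox1*, which opens the haem ring, 0.49 (adjusted p = 0.148). At day 14, 0 of 13 were DEGs in either tool, with 6 at an unadjusted p under 0.05, against 0.787% and 13.3% of all genes. Of 7 embryonic and minor globins, *Hbq1a* and *Hbq1b* were among the symbols, and their summed normalised count was at most 1.85 in any mouse. The other 5 were not analysed here.

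Markers of other cells moved with the time points too. Of 10 macrophage genes, 8 were DEGs higher at day 7, against 3.82% of all genes (median log2 fold change 0.90, or 6 DEGs and 0.82 without mouse 15), among them *C1qa* (1.05, adjusted p = 0.00400) and *Lyz2* (1.12, adjusted p = 0.0285). Of 10 acinar genes, 8 were DEGs lower at day 7, against 1.31% of all genes (median -0.74), including the lipase gene *Pnlip* (-0.88) and *Sycn* (-1.15), which was also a DEG between day 14 and day 7 (0.87). Of 10 endothelial genes, *Eng* was lower at day 7 (-0.87), and *Eng* and *Emcn* were higher at day 14 than at day 7 (0.62 and 0.64) in edgeR, whereas DESeq2 called *Eng* and *Cdh5*. Without mouse 15, 1 endothelial gene was a DEG in that comparison, against 0.190% of all genes (0.377% with mouse 15). At day 7 edgeR and DESeq2 called none of the 6 tested B lymphocyte genes, the 1 T lymphocyte gene or the 1 platelet gene. None had an unadjusted p under 0.05, against 5.13% of all genes called and 32.2% at that unadjusted p. No neutrophil gene had enough counts. In whole tissue, a change in the number of cells of a type and a change in RNA per cell cannot be told apart.

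The part of these cells in the haemoglobin values was not tested, and their levels in mouse 15 were as follows. Its summed normalised count over the 10 macrophage genes was 2721, the highest of 23 mice, against 493.01 to 1843 at baseline and 1173 to 2721 at day 7. Its platelet sum (86.8) and neutrophil sum (61.6) were each the second highest, with the highest in a baseline mouse (87.8 and 216). The sums of B and T lymphocyte genes (695 and 281) were the 4th highest, and those of endothelial genes (1099) and acinar genes (2649180) ranked 9th and 21st. Across 23 mice, *Hbb-bs* correlated with *Pf4*, the platelet gene that was tested (r = 0.475, permutation adjusted p = 0.0459, rho = 0.484, permutation p = 0.0207, adjusted p = 0.0466). Without mouse 15 this r was 0.286 (permutation adjusted p = 0.442), and without mice 15 and 16 it was 0.296. Within baseline, day 7 and day 14 it was 0.742, 0.868 and -0.339 (exact permutation, adjusted p = 0.175, 0.0156 and 0.917), and within day 7 without mouse 15 it was 0.687 (exact permutation, adjusted p = 0.194). The correlations with the mean of the macrophage, acinar, T lymphocyte, B lymphocyte and endothelial genes were 0.414, -0.349, 0.246, 0.227 and 0.03, with permutation adjusted p-values of 0.0852, 0.153, 0.334, 0.342 and 0.902, and with rho of 0.328, -0.369, 0.162, 0.0761 and 0.03 (permutation adjusted p = 0.192, 0.153, 0.589, 0.821 and 0.898). The macrophage and acinar relations passed with total count scaling (r = 0.555 and -0.490, permutation adjusted p = 0.00734 and 0.0192) and without mouse 10 (r = 0.561 and -0.541, permutation adjusted p = 0.00981 for both), and the T lymphocyte relation passed without mouse 10 (r = 0.444, permutation adjusted p = 0.0499).

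Beyond the members, the 10 genes most like *Hbb-bs* over the 23 mice, by Pearson r of log2 CPM, were *Ube2l6* (0.739), *Car2* (0.696), *A630066F11Rik* (0.686), *Rsad2* (0.686), *Hist1h4h* (0.675), *Mkrn1* (0.673), *Mir3068* (0.668), *Slc25a37* (0.661), *G6pc2* (0.649) and *Jrkl* (0.642). All were below the r of the 3 other member rows. Several of these genes were high in mouse 15. *Car2*, a carbonic anhydrase, had 92 counts there and at most 21 in any other mouse, and *Ube2l6* had 99 against at most 31. Without mouse 15, r fell to 0.460 for *Ube2l6*, 0.471 for *Car2* and 0.279 for *Mkrn1*, but was still 0.671 for *A630066F11Rik*, 0.654 for *Mir3068* and 0.619 for *Jrkl*. Over these 22 mice the highest r was that of *Fermt1* (0.728), and *A630066F11Rik* and *Mir3068* were the genes found among the top 10 both times.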

How the data were processed

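The authors depleted total RNA of ribosomal RNA, sequenced paired reads of 75 bases from a stranded kit, trimmed them with Trim Galore and cutadapt, aligned them to mm10 with STAR 2.5.2a and counted uniquely mapped fragments per gene with featureCounts. The deposited values were raw counts per gene symbol, 1 file for each of 23 mice. The strand setting of the counting is not given in the sources used here. The equal rows were found in the deposited counts, and their origin is not known. The members and the gene lists were chosen with earlier results of these data known.

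TMM scaling and edgeR 4.0.16 in R 4.3.3 were used for the tests (filterByExpr, estimateDisp, glmQLFit with robust = TRUE, glmQLFTest). Time points were compared in 1 fit with sex as a covariate (12195 genes), and the sexes at each time in a fit of 6 groups (12933 genes). P-values were two-sided and adjusted with the Benjamini-Hochberg method over all genes tested. The SE was taken as |log2 fold change|/√F. The mice are separate animals. A floor of 3 counts was 3.14e-05% to 4.25e-05% of a library. Correlations used 100000 permutations, or exact ones within a time point. Named were all members, the 3 most abundant genes of the red cell and haem lists, and the 10 genes most like *Hbb-bs*. List genes that were DEGs between time points were also named, but only some of the macrophage and acinar ones. Other names were chosen after their values were seen. Alternatives were DESeq2 1.42.0, other scalings, filters and fits, a prior count of 0.5, and leaving out each mouse. Leaving out mouse 15 for the lists and within day 7 was added after seeing the data. Values of some red cell genes are not reported here.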

Additional observations from a re-analysis of the deposited data

Results flagged for a closer look

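In the normalised counts of each of the 4 rows, mouse 15 stood apart from the other day 7 mice, and from the other day 7 males alone, by a gap larger than Dixon's 95% critical value for the group. Its normalised counts were 791 for *Hba-a1*, 3046 for *Hbb-bs*, 977 for *Hbb-bt* and 241 for *Alas2*, and the gap to the next mouse was a fraction of 0.814 to 0.855 of the range of the 8 day 7 mice. On the log2 CPM scale, chosen for this check after seeing the data, the gap passed the critical value in 1 of these 8 groups, that of *Alas2* over the 8 day 7 mice (0.543 against 0.526). For *Hba-a1*, *Hbb-bs* and *Hbb-bt* over the 8 mice it was 0.492, 0.498 and 0.440, and among the 4 males it was 0.618 to 0.677 against 0.829. On the scale of normalised counts there were 8 flags among 32 groups examined, and all 8 came from the same mouse in rows that moved together. The chance rate of about 1 group in 20 holds for separate groups. It cannot be set against these flags, since the males are part of the day 7 group and the rows are not independent.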

How the results depend on the processing

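All 4 rows stayed higher than baseline at day 7 and at day 14 under every alternative in which they were tested. The number of day 7 DEGs was 3 of 4 and fell to 1 without a filter on low counts and to 0 in a fit of only the mice compared. That fit called 520 of 11606 genes. The number rose to 4 with DESeq2, with robust = FALSE and without the sex covariate. It was also 4 with total count scaling, with or without the 20 most abundant genes. It ranged from 0 to 4 when 1 mouse was left out. Total count scaling with those 20 genes kept called 3695 of 12195 genes at day 7. Shares of all genes under DESeq2, the other scaling, the changed filter, robust = FALSE and the fit without sex are not given here. For day 14 against baseline the number rose from 0 to 2 in a fit of only the mice compared, and ranged from 0 to 2 on leaving out 1 mouse. For males against females at day 7 it rose from 0 to 3 with DESeq2 and to 1 with robust = FALSE, and ranged from 0 to 3 on leaving out 1 mouse. The number of the 9 relations past the threshold was 4, was 6 with total count scaling, and ranged from 3 to 7 on leaving out 1 mouse. Except where shown, the cause of these changes was not tested.

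Total count scaling moved the median of all genes by a log2 value of 0.47 at day 7 and 0.22 at day 14. Under it the day 7 log2 fold changes were 2.19 for *Hba-a1*, 1.97 for *Hbb-bs*, 2.32 for *Hbb-bt* and 2.13 for *Alas2*, all above that median, and *Hbb-bs* was called (adjusted p = 0.00353), as were 3695 of 12195 genes. Among fold changes and the r over 23 mice, signs reversed on leaving out 1 mouse, in values that were not called, and for the T lymphocyte gene also without mice 15 and 16 (r = -0.00234). For day 14 against day 7 the log2 fold changes then ranged from -0.81 to 0.23 for *Hba-a1*, -0.65 to 0.39 for *Hbb-bs*, -0.96 to 0.20 for *Hbb-bt* and -0.94 to 0.13 for *Alas2*, with the reversal only without mouse 15. Male against female values ranged at baseline from -0.51 to 0.15 for *Hbb-bt* and -0.12 to 0.48 for *Alas2*, and at day 14 from -0.0802 to 0.35 for *Hba-a1*, -0.0551 to 0.37 for *Hbb-bs* and -0.10 to 0.48 for *Hbb-bt*. The day 14 interaction of *Hbb-bs* ranged from -0.19 to 0.23. The r of *Hbb-bs* with B lymphocyte genes ranged from -0.0744 to 0.394, with the T lymphocyte gene from -0.0132 to 0.444 and with endothelial genes from -0.0167 to 0.0808.

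No paired analysis was possible because each mouse has a number of its own, so the groups share none. Counts of *Alas2* of 2 to 20 at baseline and of *Hbb-bt* of 9 to 61 limit their precision there. The requirement of 10 counts in every mouse removed both, and the other 2 rows were then DEGs at day 7.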
